A study of Mus musculus with 8 samples.

Results

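The members described here are 9 long RNA genes of the mouse, Neat1, Malat1, Meg3, Rian, Mirg, Miat, Mir99ahg, Mir124a-1hg and Snhg11, grouped under the name nuclear-retained long non-coding RNAs. They were chosen by symbol from 47517 symbols in the count files, with earlier results of the same libraries known, so their differences between libraries are given as a description. All 9 were among the 21392 genes that passed the filter on low counts in both main comparisons. Their levels come from RNA of the whole inner ear at postnatal day 14 (the series title names the cochlea). Of the 8 libraries, 4 are from wild-type mice and 4 from heterozygous littermates with a frameshift that alters TRα1 (thyroid hormone receptor α1, encoded by Thra). No treatment was given in either group. The labels do not give the strain, the allele's name, or whether a library is 1 animal, 1 ear or a pool, so the spread between libraries may be partly technical.

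Replicates 1 and 4 of each genotype have titles with 1 number, and replicates 2 and 3 have titles with 2 numbers, whose meaning is not stated. The 2 kinds are called 1-number and 2-number libraries below, and title form is handled as a possible batch that is balanced over genotype, with 2 libraries of each genotype in each form.

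Many long non-coding RNAs stay in the nucleus, where they act as scaffolds or are processed into small RNAs. Neat1 is the RNA core of paraspeckles, bodies that hold RNA-binding proteins, and Malat1 is concentrated in nuclear speckles, which store splicing factors. Meg3, Rian and Mirg lie next to each other in the imprinted Dlk1-Dio3 domain, are expressed from the maternal chromosome and contain snoRNAs or miRNAs. Miat binds splicing factors in neurons, Mir99ahg and Mir124a-1hg are host transcripts of miRNAs, and Snhg11 is a snoRNA host abundant in neurons. Nuclear retention itself was not measured, because the RNA was not split into nuclear and cytoplasmic fractions. The label holds less well for Snhg11, which the GENCODE M21 annotation classes as protein coding.

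Total counts per library ranged from 18930841 to 23064578, and the 9 RNAs together took between 0.0796% and 0.200% of them. Mitochondrial genes took between 8.57% and 11%. No pair of libraries agreed within sampling noise (lowest chi-square per degree of freedom 17.3). Genes of the Y chromosome held between 2050 and 2148 counts in 3 of the 2-number libraries (wild-type replicates 2 and 3, mutant replicate 3), against 325 in mutant replicate 2, which also has 2 numbers, and 309 to 498 in the 1-number libraries. Marker genes set 2 libraries apart: central glia markers summed to 3211 CPM in mutant replicate 4, of which Ttr, a choroid plexus gene, took 2021, against 627 to 974 CPM elsewhere, and marrow and blood markers summed to 51756 CPM in wild-type replicate 2, against 8375 to 26960 CPM elsewhere. A change in a member can reflect fewer cells of a type or less RNA per cell, and bulk libraries cannot tell these apart.

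Levels between genes were compared as CPM (counts scaled to a common library size after trimmed-mean normalization) per kilobase of annotated exon. Malat1 was highest at 61.3 ± 9.17 CPM per kb (SD, n = 8 libraries), and its range of 44.2 to 72.0 lay above the range of every other member. Meg3 at 19.5 ± 11.4 and Snhg11 at 19.1 ± 10.5 CPM per kb followed, then Rian at 9.54 ± 1.90 and Neat1 at 8.64 ± 3.52. Miat stood at 5.16 ± 2.81, Mir99ahg at 3.57 ± 1.80, Mir124a-1hg at 2.83 ± 1.85 and Mirg at 1.22 ± 0.740 CPM per kb (SD, n = 8). Below Malat1, the ranges of each pair of neighbours in this order overlapped. The order also differed between title forms: with 1 number Snhg11 (9.76 ± 2.90 CPM per kb) had a higher mean than Meg3 (8.95 ± 2.57), and with 2 numbers Neat1 (11.6 ± 2.05) had a higher mean than Rian (10.8 ± 1.75; SD, n = 4 each). All values that follow are CPM without division by length.

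Neat1 is annotated as a single-exon RNA of 20771 bases on the minus strand, at chr19:5824708-5845478 of GRCm38 (GENCODE M21). Counts are per gene, so any shorter form was not told apart, and its CPM per kb rests on this full length. In the 1-number libraries Neat1 stood at 147 and 131 CPM in wild-type and 86.0 and 109 CPM in mutant libraries. The 2-number libraries held 273 and 280.3 CPM in wild-type and 212 and 196 CPM in mutant libraries. All 4 2-number libraries lay above all 4 1-number libraries, with means of 240.4 ± 42.5 against 118 ± 26.7 CPM (SD, n = 4 each). The fitted log2 fold change, 2 numbers minus 1 number, was 1.03 (SE 0.088). Within each title form the mutant libraries were the lower pair.

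Malat1, also a single-exon RNA, lies 22035 bases from Neat1 on the same strand, at chr19:5795690-5802672. Its 1-number libraries held 423 and 358 CPM in wild-type and 309 and 474 CPM in mutant libraries, and its 2-number libraries 449.8 and 450.1 CPM in wild-type and 503 and 457 CPM in mutant libraries. The groups overlapped, with 391 ± 72.6 CPM for 1 number and 465 ± 25.5 CPM for 2 numbers (SD, n = 4 each) and a log2 fold change of 0.25 (SE 0.13). The fitted difference of Malat1 was below that of Neat1. The ratio of Neat1 to Malat1 counts within a library, which no normalization touches, was 0.306 ± 0.063 in 1-number and 0.520 ± 0.110 in 2-number libraries (SD, n = 4 each).

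Short annotated RNAs inside both transcripts are counted in rows of their own. Whether reads were shared between such a row and its host is not known, so these rows are not an independent reading of the host. The sequences are shown to place these rows, transcript strand 5′ to 3′ from the GENCODE M21 transcripts. Gm27533 (chr19:5844286-5844437), Gm27505 (chr19:5844638-5844747) and Gm28006 (chr19:5844916-5845037) lie near the 5′ end of Neat1, and Gm27694 (chr19:5799000-5799085) lies inside Malat1, all on the minus strand and inside the host's exon.
Gm27533: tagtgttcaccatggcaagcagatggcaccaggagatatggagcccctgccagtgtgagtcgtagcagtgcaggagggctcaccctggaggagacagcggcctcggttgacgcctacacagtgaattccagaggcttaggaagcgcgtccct
Gm27505: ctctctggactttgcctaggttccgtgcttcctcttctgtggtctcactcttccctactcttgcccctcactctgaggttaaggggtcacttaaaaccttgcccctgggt
Gm28006: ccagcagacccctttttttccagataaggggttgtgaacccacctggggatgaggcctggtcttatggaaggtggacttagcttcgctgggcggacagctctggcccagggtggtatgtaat
Gm27694: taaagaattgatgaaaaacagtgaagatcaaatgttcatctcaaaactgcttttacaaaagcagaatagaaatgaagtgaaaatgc

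Of the 3 rows inside Neat1, 1 was higher in every 2-number library than in any 1-number library, as were Neat1 and 11.6% of all genes. By edgeR all 3 were called higher in 2-number libraries, as were 6.49% of all genes. Their adjusted p by that test was 0.0096 (Gm27533), 0.0454 (Gm27505) and 0.0286 (Gm28006). Gm27533 stood at 5.99 and 5.66 CPM in 1-number wild-type, 3.03 and 3.71 in 1-number mutant, 9.98 and 10.5 in 2-number wild-type and 7.17 and 8.63 in 2-number mutant libraries. Gm27505 and Gm28006 overlapped between title forms: wild-type replicate 1, with 1 number, held 5.11 and 2.69 CPM, above the 4.51 and 2.28 CPM of mutant replicate 3, with 2 numbers. Across the 3 rows the ratio of the 2-number to the 1-number mean ran from 1.71 to 1.97, against 2.03 for Neat1. Gm27694, inside Malat1, had a ratio of 1.25, against 1.19 for Malat1. The antisense row Gm37376, which overlaps Malat1 on the other strand, was listed at 0 in wild-type replicates 1 and 2 and mutant replicate 1 and held between 1267 and 1685 counts in the other 5 libraries. That split follows neither genotype nor title form, and its part in the Malat1 counts was not tested.

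**Figure D1:**
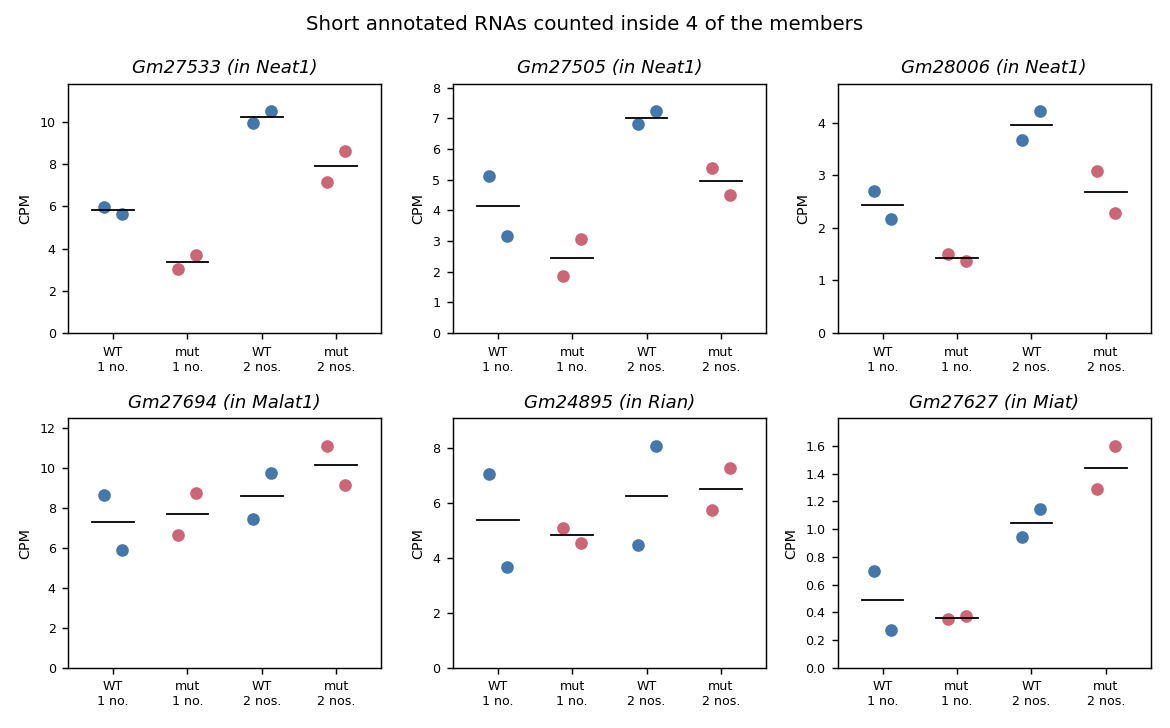
CPM (y axis, linear from 0) of 6 short annotated RNAs counted inside Neat1, Malat1, Rian and Miat, by genotype (WT wild-type, mut mutant) and by 1 or 2 numbers in the title; each point is 1 library and each line the mean of 2. The title forms do not overlap for Gm27533 (Neat1) and Gm27627 (Miat), and overlap for Gm27505 and Gm28006 (Neat1), Gm27694 (Malat1) and Gm24895 (Rian).

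Meg3, Rian and Mirg follow each other on the plus strand of chromosome 12 at chr12:109541001-109571726, chr12:109603940-109661716 and chr12:109729764-109749460, with gaps of 32213 and 68047 bases. In the 1-number libraries Meg3 stood at 229 and 128 CPM in wild-type and 132 and 159 CPM in mutant libraries. In the 2-number libraries it stood at 507 and 536 CPM in wild-type and 579.8 and 546 CPM in mutant libraries. The groups were far apart, at 162 ± 46.5 and 542 ± 30.1 CPM (SD, n = 4 each), and the fitted difference was 1.75 on the log2 scale (SE 0.19).

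Mirg, the miRNA-rich transcript at the far end, behaved like Meg3. It held 6.13 and 3.17 CPM in 1-number wild-type, 2.72 and 3.92 in 1-number mutant, 12.7 and 13.8 in 2-number wild-type and 13.5 and 15.3 in 2-number mutant libraries. Every 2-number library was above every 1-number library (3.99 ± 1.51 against 13.8 ± 1.07 CPM, SD, n = 4 each), with a log2 fold change of 1.81 (SE 0.25).

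Rian, the snoRNA host between them, did not separate the libraries in this way. It held 168 and 125 CPM in 1-number wild-type, 157 and 153 in 1-number mutant, 154 and 229.6 in 2-number wild-type and 195 and 210.3 in 2-number mutant libraries. Wild-type replicate 2, a 2-number library, lay among the 1-number libraries, and the means of 151 ± 18.3 and 197 ± 32.0 CPM (SD, n = 4 each) gave a log2 fold change of 0.39 (SE 0.14). Gm24895, a snoRNA in a Rian exon, had a 2-number to 1-number ratio of 1.25, against 1.31 for Rian.

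Ratios of counts within each library show the split inside the domain without normalization. Meg3 to Rian was 1.07 ± 0.216 in 1-number libraries (range 0.840 to 1.36) and 2.80 ± 0.419 in 2-number libraries (range 2.33 to 3.29; SD, n = 4 each). Meg3 to Mirg was 41.7 ± 4.83 and 39.4 ± 2.94 (SD, n = 4 each), with overlapping ranges. Over the 8 libraries the log2 CPM of Meg3 had a Pearson r of 0.994 with Mirg and of 0.778 with Rian. These values describe libraries of both title forms, whose difference enters r, as may depth and preparation. The antisense row Gm26906, which overlaps the 3′ part of Meg3, was listed at 0 in 4 libraries of both title forms and held between 215 and 1109 counts in the rest.

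**Figure D2:**
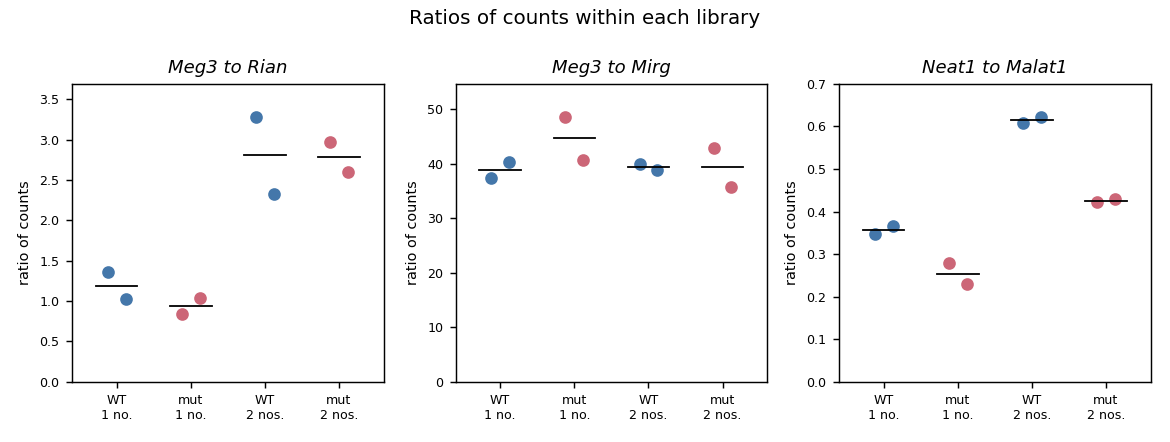
Ratio of the counts of 2 members within each library (y axes, linear from 0), by genotype and numbers in the title; points are libraries and lines the means of 2. Meg3 to Rian and Neat1 to Malat1 are higher in 2-number libraries, Meg3 to Mirg is not, and Neat1 to Malat1 is lower in mutant libraries within each title form.

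The promoters of Meg3 and Rian are printed with that of Malat1, because Meg3 differed between title forms and the other 2 RNAs were not called. They are RefSeq entries on GRCm38.p6, from 250 bases before to 50 bases after the annotated start, at chr12:109540746-109541045 (plus strand), chr12:109603695-109603994 (plus strand) and chr19:5802623-5802922 (minus strand). Capitals mark matches, on either strand, to 4 motifs: TGACGTCA (cAMP response element), TATAAA (a core promoter element), AGGTCA (nuclear receptor element) and the direct repeat of AGGTCA with 4 bases between, known as DR4. Each DR4 holds AGGTCA, and the TATAAA matches of Meg3 overlap each other.
Meg3: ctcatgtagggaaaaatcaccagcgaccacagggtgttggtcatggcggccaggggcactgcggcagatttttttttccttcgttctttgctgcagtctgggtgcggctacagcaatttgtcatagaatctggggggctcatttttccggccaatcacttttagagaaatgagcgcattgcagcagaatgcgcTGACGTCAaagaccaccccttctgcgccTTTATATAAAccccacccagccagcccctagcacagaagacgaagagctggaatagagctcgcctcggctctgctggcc
Rian: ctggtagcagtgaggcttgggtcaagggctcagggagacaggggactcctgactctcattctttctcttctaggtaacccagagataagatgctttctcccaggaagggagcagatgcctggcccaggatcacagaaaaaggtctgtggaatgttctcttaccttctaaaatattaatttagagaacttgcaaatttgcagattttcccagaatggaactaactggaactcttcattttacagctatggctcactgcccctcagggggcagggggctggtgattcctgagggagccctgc
Malat1: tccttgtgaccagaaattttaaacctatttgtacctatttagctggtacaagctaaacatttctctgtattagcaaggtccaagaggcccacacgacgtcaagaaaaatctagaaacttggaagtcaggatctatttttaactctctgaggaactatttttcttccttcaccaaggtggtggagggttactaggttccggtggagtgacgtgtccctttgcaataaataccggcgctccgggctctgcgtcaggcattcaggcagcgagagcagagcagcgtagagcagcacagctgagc

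The Meg3 promoter holds TGACGTCA at position -57 from the start, a motif found in 1.79% of 32851 mouse promoters of this length, and TATAAA, found in 13.6%. It holds 13 CpG dinucleotides, the Malat1 promoter 10 and the Rian window 0, against a median of 7 over all promoters. AGGTCA, present in 16.3% of all promoters, matched once in the second RefSeq start of Meg3 and once in the Mir99ahg promoter, and in none of the other 6 entries for the members. DR4, present in 0.0152% of all promoters, matched in none of the 8 entries, which cover 7 of the 9 members. The RefSeq start lies 5217 bases from the GENCODE start for Mirg, 93011 bases for Mir99ahg and 447 bases for Miat.

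Miat is a spliced RNA at chr5:112213228-112229395, minus strand. In the 1-number libraries it stood at 32.3 and 19.8 CPM in wild-type and 21 and 23.9 CPM in mutant libraries. The 2-number libraries held 61.3 and 74.9 CPM in wild-type and 81.0 and 69.2 CPM in mutant libraries. The groups did not overlap (24.3 ± 5.65 and 71.6 ± 8.38 CPM, SD, n = 4 each), with a log2 fold change of 1.56 (SE 0.17). Miat is known for repeats of ACTAAC (in DNA letters), a sequence that the splicing factor SF1 recognises in RNA, and 1 of its annotated conserved pieces, Gm27627 (chr5:112217318-112217467, minus strand, exonic), is shown with these matches in capitals.
Gm27627: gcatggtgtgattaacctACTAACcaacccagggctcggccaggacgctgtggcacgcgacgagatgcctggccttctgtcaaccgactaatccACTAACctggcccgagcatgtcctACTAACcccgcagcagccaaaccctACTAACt

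Gm27627 holds 4 matches to ACTAAC on the transcript strand in 150 bases. In the first 150 bases of 135671 annotated transcripts, 1.19% held 1 or more matches and 0.000737% held 3 or more. The share with 3 or more is Gm27627 itself, which is among these transcripts, so it is not an independent background. The counts of Gm27627 were low, 137 over all libraries, and with Gm27998, the other Miat piece counted in every library, its 2-number to 1-number ratios were 2.94 and 3.63, against 2.95 for Miat.

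Mir99ahg spans 537111 bases on the plus strand at chr16:77236317-77773427, most of it intron, and hosts miR-99a, let-7c and miR-125b. Its 1-number libraries held 27.3 and 25.0 CPM in wild-type and 24.1 and 33.7 CPM in mutant libraries. Its 2-number libraries held 82.2 and 70.5 CPM in wild-type and 78.2 and 67.6 CPM in mutant libraries. The title forms averaged 27.5 ± 4.35 and 74.6 ± 6.73 CPM (SD, n = 4 each), with no overlap and a log2 fold change of 1.44 (SE 0.12). Of 13 rows with a count inside its span, 6 had counts in every library. These 6, annotated wholly inside its introns, were higher in each 2-number library than in any 1-number library, as were 11.6% of all genes. Their ratios ran from 1.78 to 3.24, and 9430053O09Rik, which has the ratio of 1.78, lies on the other strand. Rows with 0 counts in some libraries had ratios, where one could be formed, from 0.656 (Gm31258, 8 counts in all) to 9.79 (Gm37063, 12 counts in all).

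Mir124a-1hg, host of the neuronal miRNA miR-124, lies at chr14:64587331-64593961 on the plus strand. It held 7.76 and 4.97 CPM in 1-number wild-type, 4.13 and 4.98 in 1-number mutant, 21.4 and 23.3 in 2-number wild-type and 23.5 and 18.6 in 2-number mutant libraries. It had the highest fold of the 9 members for title form (5.46 ± 1.58 and 21.7 ± 2.26 CPM, SD, n = 4 each), with a log2 fold change of 2.01 (SE 0.18).

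Snhg11 lies at chr2:158375638-158386145 on the plus strand. It held 118 and 62.6 CPM in 1-number wild-type, 69.4 and 82.5 in 1-number mutant, 219 and 248 in 2-number wild-type and 289 and 217 in 2-number mutant libraries. Its levels did not overlap between title forms, with means of 83.1 ± 24.7 and 243 ± 33.5 CPM (SD, n = 4 each) and a log2 fold change of 1.55 (SE 0.22). The exonic snoRNA row Gm25187 inside it went the other way, with 59 counts in all. Wild-type replicate 4 held 21, mutant replicate 1 held 22 and mutant replicate 4 held 16, against 0 in every 2-number library.

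**Figure D3:**
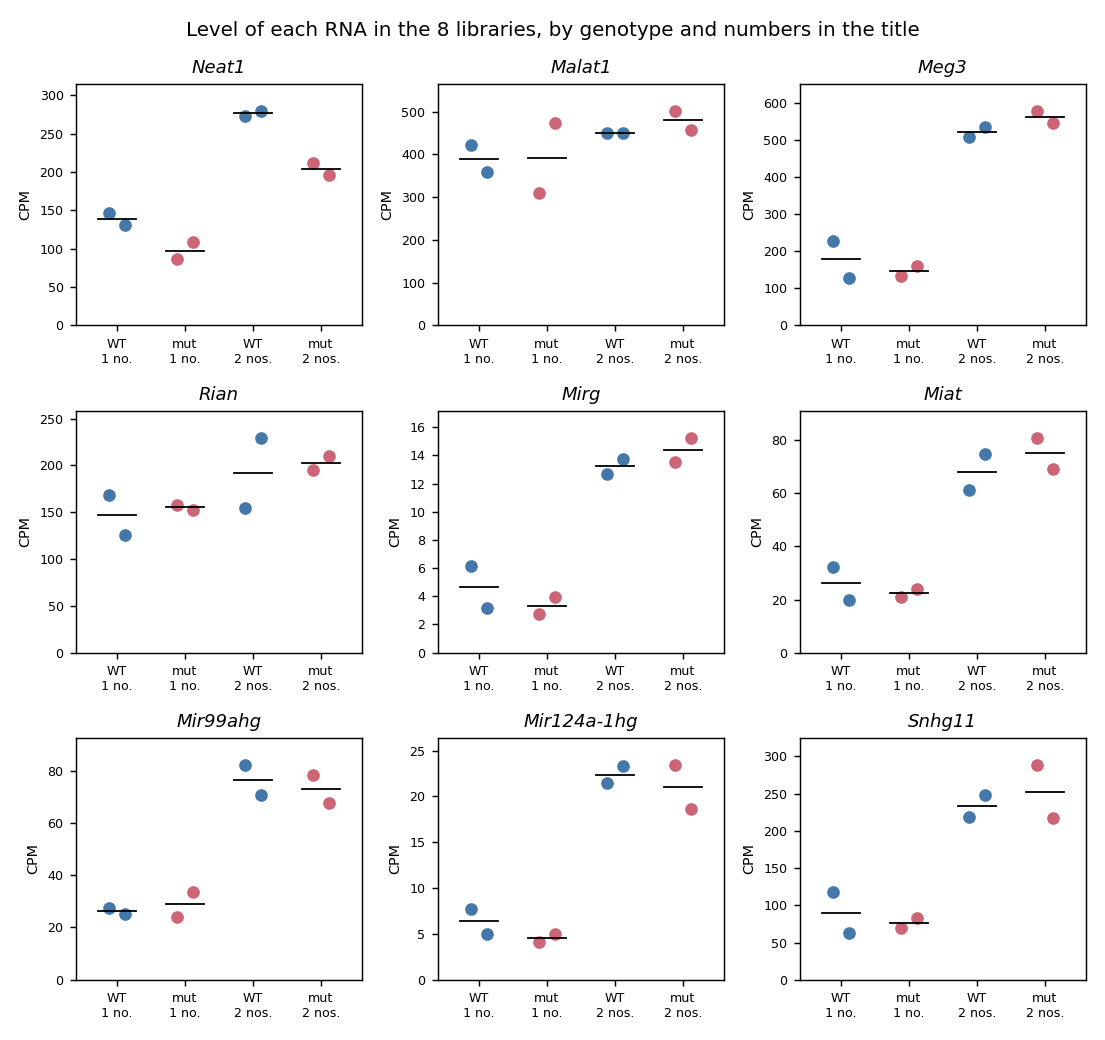
CPM (y axis, linear from 0) of the 9 RNAs in the 8 libraries, by genotype (WT wild-type, mut mutant) and by 1 or 2 numbers in the title; each point is 1 library and each line the mean of 2. For 7 RNAs all 2-number libraries lie above all 1-number libraries, Malat1 and Rian overlap, and Neat1 is lower in mutant libraries within each title form.

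The mature miRNAs that lie inside the members show what these transcripts can be processed into. RefSeq miRNA entries placed 41 mature miRNAs inside 4 members: 3 in Meg3, 6 in Rian, 26 in Mirg and 6 in Mir99ahg. These entries held no mature miRNA inside Mir124a-1hg, although GENCODE M21 places 2 miRNA genes there, so its miRNAs are missing from the count. The 41 mature miRNAs carry 40 distinct seeds, and the pair that shares a seed is in Mirg. Shown are the main arms of the Mir99ahg cluster, 1 miRNA of Meg3, 1 of Rian, 2 well-known miRNAs of Mirg and the pair with a shared seed, with the seed (bases 2 to 8) in capitals.
miR-99a-5p (Mir99ahg): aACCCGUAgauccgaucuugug
let-7c-5p (Mir99ahg): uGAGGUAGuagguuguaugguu
miR-125b-5p (Mir99ahg): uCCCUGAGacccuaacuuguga
miR-770-5p (Meg3): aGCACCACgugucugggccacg
miR-370-3p (Rian): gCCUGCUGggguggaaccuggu
miR-134-5p (Mirg): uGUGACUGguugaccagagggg
miR-410-3p (Mirg): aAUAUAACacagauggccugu
miR-453 (Mirg): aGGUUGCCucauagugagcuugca
miR-496a-5p (Mirg): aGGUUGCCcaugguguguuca

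These small RNAs themselves were not measured: only 6 miRNA rows inside the members held any count, at most 375 over all libraries, and such rows cover the hairpin rather than the mature form. The host levels are not a measure of the mature miRNAs.

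Read together for title form, the 9 RNAs had a median log2 fold change of 1.55, against -0.01 over all 21392 genes tested, and 7 of the 9 were called higher in 2-number libraries (edgeR quasi-likelihood test with Benjamini-Hochberg adjusted p under 0.05, genotype in the model). Over all genes, 9.39% were called in either direction, 6.49% higher and 2.9% lower with 2 numbers. In counts this was 1388 genes higher and 620 lower, and 1643 higher and 267 lower when libraries were scaled by their totals only. For the same 7 RNAs the title forms did not overlap, with every 2-number library higher, a pattern found in 11.6% of all genes. Since the members were chosen with this contrast known, nothing is read from these counts. Within wild-type libraries alone the log2 fold changes of the 7 ranged from 0.99 to 1.81, and within mutant libraries alone from 1.08 to 2.22.

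With the Y-linked share of counts as a further term no gene of the 21392 was called, whereas the log2 fold changes of the 7 RNAs ranged from 1.12 to 2.33. Mutant replicate 2, the 2-number library with few Y-linked counts, had the highest level of any library for Meg3, Miat, Mir124a-1hg and Snhg11, and lay within the range of the other 2-number libraries for Neat1, Mirg and Mir99ahg. Snhg11 was the only member that lost its call when a library was left out (log2 fold change 1.47, edgeR adjusted p = 0.0584, without mutant replicate 1). Over all 22 alternatives each of the 7 RNAs lost its call in 2 to 4, the Y-linked term among them.

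Genotype showed no such separation. None of the 9 RNAs was called between mutant and wild-type libraries by edgeR, where 0.0421% of all genes were called (9 of 21392, with 1134 genes at an unadjusted p under 0.05), and by none of the other tools run (DESeq2, limma-voom). The ranges of the genotypes overlapped for all 9, while 2.69% of all genes did not overlap. The log2 fold changes, mutant minus wild-type, were -0.46 (SE 0.37) for Neat1, 0.05 (SE 0.16) for Malat1, 0.02 (SE 0.65) for Meg3 and 0.08 (SE 0.19) for Rian. Those of the other 5 lay between -0.16 (SE 0.73, Mir124a-1hg) and 0.05 (SE 0.59, Miat). With title form in the model the standard errors were smaller: Meg3 had -0.09 (SE 0.19), Mirg -0.17 (SE 0.24), Miat -0.03 (SE 0.17), Mir99ahg 0.04 (SE 0.12), Mir124a-1hg -0.28 (SE 0.17) and Snhg11 -0.07 (SE 0.21). None of these passed the threshold, which does not show that the genotypes are alike.

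**Figure D4:**
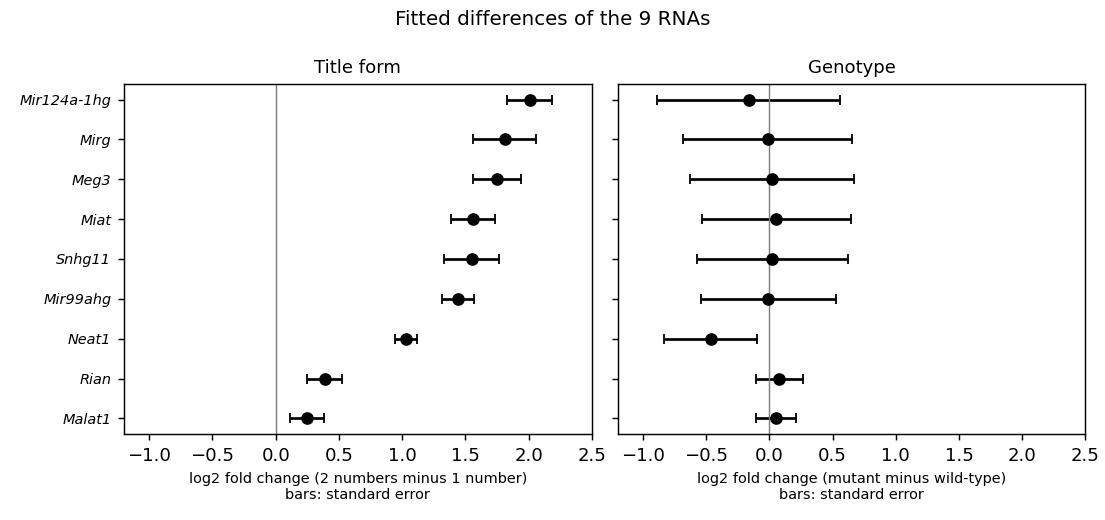
Fitted log2 fold changes of the 9 RNAs for title form (left, 2 numbers minus 1 number) and genotype (right, mutant minus wild-type); bars are standard errors. Title form differences run from 0.25 (Malat1) to 2.01 (Mir124a-1hg), and genotype differences lie between -0.46 (Neat1) and 0.08 (Rian).

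Neat1 was the only member whose mutant libraries lay on 1 side of both wild-type libraries, the same side, in each title form, a feature singled out after its values were seen. In 1-number libraries the mutant mean was 0.701 of the wild-type mean, and in 2-number libraries 0.737, with both mutant libraries below both wild-type libraries each time. In all, 4.19% of genes were lower in this way in both title forms and 3.55% higher. With title form in the model the Neat1 log2 fold change was -0.48 (SE 0.087), and the edgeR adjusted p over all 21392 genes was 0.351, so the difference did not pass the threshold, which 0.0234% of genes passed. In the fit for genotype alone Neat1 had -0.46 (SE 0.37). In that fit the 3 rows inside Neat1 had log2 fold changes of -0.51 (SE 0.37), -0.59 (SE 0.36) and -0.63 (SE 0.32). Gm27694 inside Malat1 had 0.17 (SE 0.20) in the same fit. These rows may share reads with their hosts. The Neat1 to Malat1 ratio was 0.348 and 0.367 in wild-type against 0.278 and 0.230 in mutant 1-number libraries, and 0.608 and 0.623 against 0.421 and 0.429 in 2-number libraries.

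The difference between genotypes was also tested for a change with title form. The product term was called for 0.074% of 22979 genes and for none of the 9 RNAs by edgeR (lowest unadjusted p of a member 0.240, for Mirg), while DESeq2 called 136 genes and limma-voom 0.

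Partners of these RNAs, other non-coding genes and cell type markers are next. Their title form counts are to be read beside the 6.49% of all genes called higher and 2.9% called lower with 2 numbers. Here rose and fell mean called higher or lower by edgeR, from RNA counts. Scaling by library totals only moved the median of all genes from -0.01 to 0.04. Of 24 paraspeckle protein genes tested, 11 rose in 2-number libraries and 0 fell (median log2 fold change 0.16, 15 of 24 positive). Among the 11 were Ewsr1 at 0.50 (SE 0.055), Hnrnph3 at 0.70 (SE 0.078) and Dazap1 at 0.53 (SE 0.067), all encoding RNA-binding proteins. These differences were below the 1.03 of Neat1. Of 31 nuclear speckle and splicing protein genes 17 rose and 0 fell (median 0.38, 28 of 31 positive). Among the 17 were Clk4 at 1.13 (SE 0.096) and Clk1 at 1.05 (SE 0.12), which encode kinases that phosphorylate SR splicing factors. Pnn, which encodes a speckle protein, had 0.75 (SE 0.076). Clk4 stood at 44.8 ± 4.03 CPM in 1-number and 97.8 ± 9.41 CPM in 2-number libraries (SD, n = 4 each), with no overlap.

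Other non-coding genes gave a mixed picture. Of 26 other regulatory long non-coding RNAs, 8 rose and 1, the imprinted Peg13, fell (median 0.50). Dleu2 had 0.78 (SE 0.069), the cardiac-lineage RNA Bvht 1.22 (SE 0.11) and Ftx, an activator of Xist, 1.10 (SE 0.14). Of 14 snoRNA host genes 7 rose and 0 fell (median 0.38), with Snhg20 at 0.97 (SE 0.086), Gas5 at 0.57 (SE 0.061) and Snhg17 at 1.19 (SE 0.14). Among 4 further miRNA hosts 1 passed the test (median 0.92), Mir17hg at 1.34 (SE 0.18). Mir142hg had 1.27 (SE 0.35, edgeR adjusted p = 0.0690) and Mir124-2hg 0.56 (SE 0.18, edgeR adjusted p = 0.0948). Of the 7 protein genes tested around the Dlk1-Dio3 domain none was called for title form by edgeR (median -0.02), where 9.39% of all genes were called and 5747 had an unadjusted p under 0.05. Dlk1, the paternally expressed growth factor at one end of the domain, had a genotype log2 fold change of 1.25 (SE 0.30, edgeR adjusted p = 0.701). H19, an imprinted RNA on another chromosome, had 1.83 (SE 0.62, edgeR adjusted p = 0.911).

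**Figure D5:**
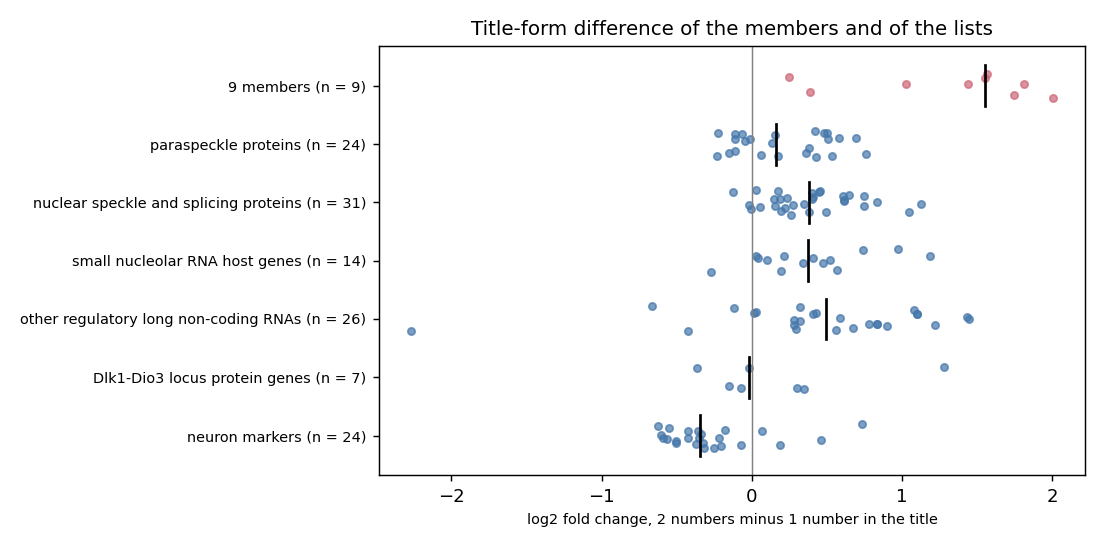
Log2 fold change for title form (x axis, 2 numbers minus 1 number) of each member and of each tested gene in 6 gene lists; points are genes and black lines medians. The members' median is 1.55, that of speckle and splicing proteins 0.38, of paraspeckle proteins 0.16 and of neuron markers -0.34.

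Markers of cell types were read beside these levels, since several of the RNAs are enriched in neurons. Of 24 neuron markers 0 rose and 7 fell in 2-number libraries (median -0.34), with the neurofilament genes Nefm at -0.59 (SE 0.082), Nefh at -0.61 (SE 0.091) and Nefl at -0.56 (SE 0.071). The summed level of the 24 ran from 8196 to 8606 CPM in 1-number and from 5457 to 6568 CPM in 2-number libraries, without overlap. This sum moved the opposite way from Meg3, Miat, Mir124a-1hg and Snhg11. Of its 1-number mean of 8392 CPM, Nefm took 2599, Nefh 1497 and Nefl 1346 CPM. Among the 24 markers, 17 were not called and 4 had positive log2 fold changes. The 12 hair cell markers summed to between 688 and 981 CPM in every library. In 1-number libraries their mean sum was 917 CPM, of which Calb2 took 523, Pvalb 157 and Myo7a 89.3 CPM. Like the 7 neuron markers called lower, Calb2 fell in 2-number libraries (log2 fold change -0.37, SE 0.076). Among 20 marrow and blood markers Ebf1 rose (0.48, SE 0.090) and among 14 bone and cartilage markers Runx2 rose (0.55, SE 0.12). No marker of central glia, Schwann cells, fibroblasts and vessels, skeletal muscle or mucosal epithelium was called for title form. For genotype, 12 of 12 central glia markers had positive log2 fold changes and 19 of 20 marrow and blood markers negative ones, with none called by edgeR. In the same comparison 4 mucosal epithelium markers were called lower, and that list's sum was 194 to 655 CPM in wild-type and 4.60 to 7.22 CPM in mutant libraries. The part of these cell types in the members' levels was not tested.

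Over the 8 libraries, the genes most like 7 of the RNAs were found by Pearson r of log2 CPM among 12900 genes with a mean of at least 5 CPM. They are Taf8 for Neat1 (r = 0.992), Elmo1 for Malat1 (0.972), Wdfy2 for Meg3 (0.997), Atxn2l for Mirg (0.992), Slc27a1 for Miat (0.996), Bvht for Mir124a-1hg (0.996) and Slc27a1 for Snhg11 (0.996). An r over 0.95 was reached by between 121 and 209 genes for Meg3, Mirg, Miat, Mir99ahg, Mir124a-1hg and Snhg11, by 43 for Neat1, 28 for Rian and 5 for Malat1. These values describe 8 libraries of both title forms. For a member that separates the forms, a gene that separates them in the same direction scores highly.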

How the data were processed

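The deposited files hold counts per gene symbol for 8 libraries, whole numbers made by the authors and not normalized. FastQC, STAR, HTSeq and genome build mm10 are listed, with no version, per the submitters' processing notes. The total RNA kit adds unique molecular identifiers, per the labels. Not given in the sources used here were the annotation, counting options, strand setting and any removal of duplicates, so overlapping and antisense rows cannot be separated from their hosts. Of 47517 symbols 45236 matched GENCODE M21 names. Another 15 symbols look like dates and held at most 0.135% of a library's counts.

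Counts were fitted with edgeR 4.0.16 in R 4.3.3 (trimmed mean of M-values, default filter, robust quasi-likelihood), for genotype alone, for title form with genotype, and for their product, with Benjamini-Hochberg adjustment over all genes tested and a threshold of 0.05. The standard error is the log2 fold change divided by the square root of F. With 18930841 to 23064578 counts a library, 3 counts equal 0.132 to 0.159 CPM, which covers counting error only. Fits were tested on simulated data. The genotype simulation held no title form difference, so it does not cover that feature of these libraries. Alternatives were 3 other scalings, 2 filters, DESeq2 1.42.0, limma-voom (limma 3.58.1), covariates, gene sets left out, single title forms or genotypes and each library left out. Correlations used log2 CPM with a prior count of 2.

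Members and lists were chosen with earlier results of these data known. Named genes are the members, up to 3 genes of each list with the smallest p for title form and for genotype, up to 3 marker genes with the highest level, and up to 3 most similar genes of each member. The results of some genes named by the rule were left out. Single called genes of short lists and the rows inside members were named after their values were seen.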

Additional observations from a re-analysis of the deposited data

Results flagged for a closer look

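In groups of 4 libraries (by genotype or by title form) each of the 9 RNAs was examined for a library far from the rest, 36 groups in all. A single one was marked: Malat1 in mutant replicate 2, at 503 CPM, stood above the other 2-number libraries, which held between 449.8 and 457 CPM. The gap took 0.857 of the range, against a critical value of 0.829. Chance marks about 1 in 20 such groups.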

How the results depend on the processing

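The direction of the title form difference was the same for all 9 RNAs in every alternative run. The number of genes called for title form was 2008, and became 1230 without a filter, 29 in wild-type libraries only, 55 in mutant libraries only, 0 with the Y-linked share of counts added, and between 254 (without mutant replicate 1) and 1640 (without wild-type replicate 2) with 1 library left out; apart from wild-type replicate 2, every library left out took it to 971 or fewer. Scaling by library totals only gave a count of 1910 but raised the share of higher calls from 69.1% to 86.0%. The adjusted p of Rian fell to 0.0489 under DESeq2 (log2 fold change 0.39). For genotype 9 genes were called, against 68 with DESeq2, 17 with limma-voom, 5 with title form added and 6 to 14 with 1 library left out (14 without mutant replicate 4). For the product of genotype and title form 17 were called, against 136 with DESeq2, 0 with limma-voom and 29 to 58 with 1 library left out. The causes were not tested.

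No member was called for genotype in any alternative, and Neat1 stayed negative in all of them (-0.67 to -0.27 with 1 library left out, adjusted p from 0.124 to 1 over all alternatives). The genotype log2 fold changes of the other 8 RNAs changed sign in at least 1 alternative. With library totals only Mirg had 0.0045 and Mir99ahg 0.0036. With limma-voom Meg3 had -0.074, Miat -0.0025, Mir99ahg 0.039 and Snhg11 -0.047. With title form added Meg3 had -0.089, Miat -0.034, Mir99ahg 0.037 and Snhg11 -0.066. In 1-number libraries only Mirg had -0.48, Mir124a-1hg -0.48, Meg3 -0.28, Miat -0.21, Mir99ahg 0.15 and Snhg11 -0.24, and in 2-number libraries only Mirg had 0.12. With 1 library left out the ranges were -0.023 to 0.19 for Malat1, -0.33 to 0.30 for Meg3, -0.042 to 0.26 for Rian, -0.41 to 0.29 for Mirg, -0.31 to 0.37 for Miat, -0.29 to 0.32 for Mir99ahg, -0.64 to 0.17 for Mir124a-1hg and -0.40 to 0.30 for Snhg11.

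The labels do not pair the libraries, and a replicate block of neighbouring title numbers is an assumption. The deviations of same-numbered libraries correlated at 0.128, 0.252, 0.187 and -0.038, and 3 of 4 wild-type libraries correlated best with their own number. Same-numbered libraries also share title form, which these correlations cannot tell apart from pairing. With the block 29 genes were called for genotype, and Meg3 had -0.059, Miat -0.012, Mir99ahg 0.028 and Snhg11 -0.038.

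The design limits the precision: 4 libraries a group, and title form, whose meaning is unknown, coincides in part with Y-linked counts. Rows inside the members with few counts carry the least weight.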
